A study of Callithrix jacchus with 20 samples.

Results

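CGA, VTCN1, GATA2, GATA3, TFAP2A, ISL1, GABRP and S100P, 8 genes that primate amnion and trophoblast express, were followed through marmoset stem cell lines and the embryoid bodies (EBs) grown from them. The genes were taken by name as markers of both tissues, with earlier results of these data known. All 8 were present among the 22327 genes of the stem cell table and the 22800 genes of the EB table. The question was whether they are switched on in stem cell lines made by somatic cell nuclear transfer (SCNT), in which the nucleus of a body cell replaces that of an egg, and how high they come in the EBs of those lines relative to lines from fertilized embryos.

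The libraries came from 3 kinds of line of the common marmoset, a small New World primate. Nuclear transfer ESC lines were derived from SCNT blastocysts whose donor nuclei came from wild-type fibroblasts (ntESC WT #30, #53 and #61) or from fibroblasts of animals that carry a CAG-EGFP transgene, which drives green fluorescent protein from a ubiquitous promoter (ntESC GFP #24, #50, #54 and #55). All SCNT embryos had received mouse Kdm4d mRNA, which encodes a histone demethylase, the deacetylase inhibitor trichostatin A and an inhibitor of the histone methyltransferase G9a, so nuclear transfer and these treatments cannot be told apart. The control ESC lines were wild-type and derived from natural (NAT #13 and #37) or in vitro (IVF #15 and #17) fertilization, and 1 wild-type fibroblast culture was read beside them. By the paper, control ESCs were read over a wider range of passages, which reached later than that of the ntESCs. It gives WT #30 as XY and GFP #24 as XX, with the sexes in unequal shares among the groups. Passage and sex entered no model here and are not separated from nuclear transfer. EBs were kept for 30 days without attachment, from WT #30, #53 and #61, from GFP #24 and #50, and from controls #13, #17 and #37. Each line gave 1 library at each stage read, so that n counts lines (3 ntESC WT, 4 ntESC GFP, 4 control ESC, 3 ntEB WT, 2 ntEB GFP and 3 control EB). The labels do not say whether lines of a group share a donor animal, and the p-values then measure only the spread between these lines.

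The amnion is the thin sac around the embryo, and in primates it arises from the epiblast, the same tissue from which primed ESCs take their character. The trophoblast arises earlier, from the outer cells of the blastocyst, and builds the placenta. GATA2, GATA3 and TFAP2A are transcription factors of trophoblast and of early amnion, both of which respond to BMP signals in cultured human cells. ISL1 is a LIM homeodomain factor of the primate amnion and also of heart progenitors and motor neurons. CGA encodes the alpha subunit shared by chorionic gonadotropin and the pituitary glycoprotein hormones. VTCN1 (B7-H4) is a surface protein that restrains T cells, GABRP is the pi subunit of the GABA-A receptor, and S100P is a calcium-binding protein first purified from placenta. Because most of these genes serve both tissues, the set does not separate amnion from trophoblast.

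The values are TPM, a transcript level corrected for transcript length and scaled to a sum of 1000000 in each library, with genes of the sex chromosomes left out by the authors. The unit does not carry read totals, so depth is unknown here and values have no counting error attached. All 15 measured pluripotency genes were at 1 TPM or more in every stem cell line. Their summed level was 4247 to 8724 TPM in ntESC WT, 7479 to 10485 TPM in ntESC GFP and 8221 to 10431 TPM in control ESC lines, and the fibroblast culture had 18.0 TPM. Among EBs it was 98.2 to 423.1 TPM in ntEB WT, 371.7 TPM in ntEB GFP #50 and 291.3 to 498.5 TPM in control EBs. In ntEB GFP #24 it was 6439 TPM, within the range of ntESC WT but below every ntESC GFP and control ESC line. The same library had 18422 TPM of summed fibroblast genes, against 596.4 to 2279 TPM in ntESC GFP and 9502 to 15914 TPM in control EBs. The paper likewise reports no clear loss of pluripotency markers when line #24 differentiated. The differences of ntEB GFP are therefore also given without #24, as sizes only because 1 GFP EB library is then left.

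In the stem cell lines, the transcription factors of the set were highest in ntESC WT #30 and next highest in ntESC WT #53. GATA2 stood at 199.6, 45.0 and 20.9 TPM in ntESC WT #30, #53 and #61, at 26.0, 34.9, 21.0 and 27.7 TPM in ntESC GFP #24, #50, #54 and #55, and at 31.0, 27.2, 21.2 and 37.7 TPM in control ESC #13, #15, #17 and #37. All control and GFP lines thus held GATA2 RNA, within a narrow range, and WT #30 stood far above it. GATA3 was at 149.0, 71.5 and 23.9 TPM in the WT lines, at 12.5, 32.6, 3.86 and 9.35 TPM in the GFP lines and at 19.2, 21.6, 37.4 and 51.3 TPM in the control lines, taken in the same order. The GFP lines reached lower than any control for this gene, with #54 at the bottom.

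TFAP2A was at 44.5, 12.1 and 2.06 TPM in ntESC WT #30, #53 and #61, at 1.09, 5.05, 0.708 and 1.47 TPM in the 4 GFP lines and at 2.33, 2.75, 3.32 and 6.96 TPM in the 4 control lines. Its order matched that of GATA3 at the top, with WT #30, WT #53 and control #37 as the 3 highest lines. ISL1 was scarce, at 8.45, 5.88 and 0.424 TPM in the WT lines, 0.437, 1.99, 0.137 and 0.176 TPM in the GFP lines, and 0.255, 0.607, 2.55 and 3.41 TPM in the control lines. The control lines overlapped both SCNT groups for this gene. The fibroblast culture had 12.5 TPM of GATA2, 2.25 TPM of GATA3, 1.07 TPM of TFAP2A and 0 TPM of ISL1, below each group's mean in the stem cell lines.

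The 4 genes that act at the cell surface, as a hormone subunit or in calcium binding were at a few TPM or less in most stem cell lines. VTCN1 reached 130.0, 6.68 and 0.784 TPM in ntESC WT #30, #53 and #61 and 0.489, 9.55, 0.220 and 1.20 TPM in ntESC GFP #24, #50, #54 and #55, against 1.18, 1.06, 0.663 and 1.01 TPM in control ESC #13, #15, #17 and #37. GABRP followed the same lines, at 88.6, 7.38 and 0.594 TPM in the WT lines and 0.488, 6.70, 0.0365 and 0.530 TPM in the GFP lines, against 0.598, 1.49, 1.09 and 1.91 TPM in the control lines. For both genes WT #30, WT #53 and GFP #50 were above every control line, and the other 4 SCNT lines were within or below the control range or just above it (VTCN1 in GFP #55).

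CGA was low in all stem cell lines, at 5.75, 1.57 and 3.45 TPM in the WT lines, 2.10, 1.40, 0.567 and 1.29 TPM in the GFP lines and 2.53, 0.735, 0.139 and 0.433 TPM in the control lines. WT #30 and #61 exceeded the highest control line and WT #53 did not. S100P was at 3.05, 1.72 and 3.43 TPM in the WT lines, listed at 0 in GFP #24, #54 and #55 and at 0.214 TPM in GFP #50, and at 3.43, 0.672, 0.848 and 1.76 TPM in the control lines. The GFP lines thus lay wholly below the control lines for S100P, as 5.96% of all tested genes did. CGA, VTCN1, GABRP and S100P were all listed at 0 in the fibroblast culture.

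**Figure D1:**
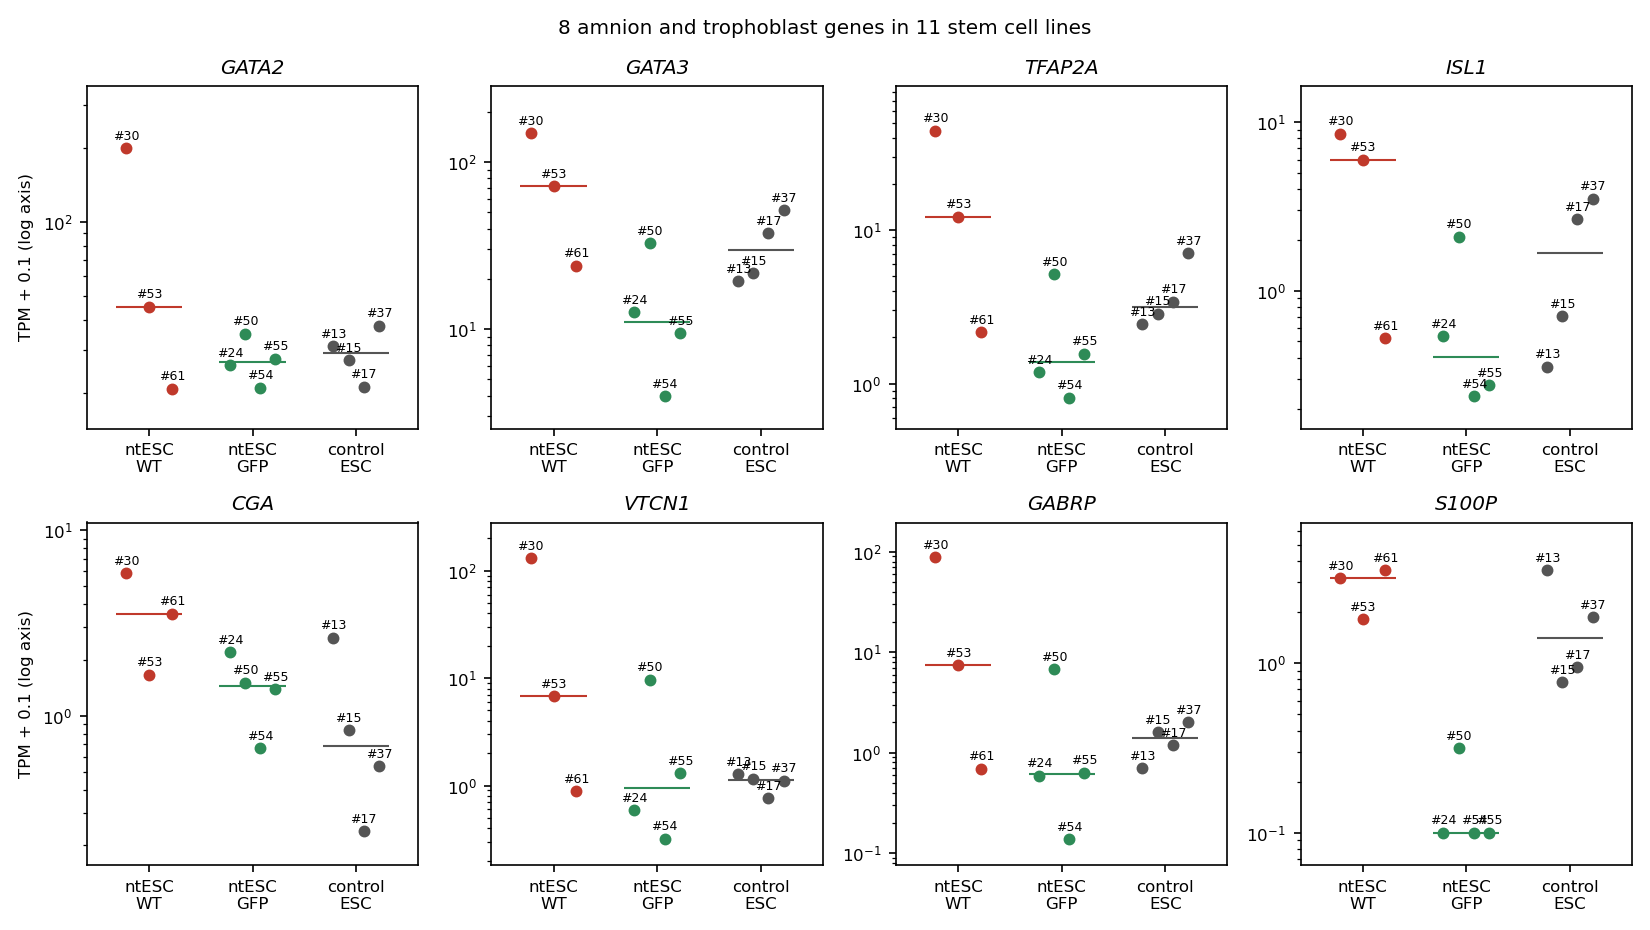
Level of each of the 8 genes (TPM + 0.1, log axis) in the 11 stem cell lines, 1 point a line, with ntESC WT, ntESC GFP and control ESC from left to right and a bar at the group median. ntESC WT #30 is the top point for 7 of the genes, and S100P is lowest in the 4 ntESC GFP lines.

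A rule for single lines set each SCNT line against the range of the control lines. A gene was raised if it reached at least 1 TPM and exceeded the top control by more than 2-fold, and lowered if it fell under 0.5 times the bottom control, provided that this control had at least 1 TPM. By this rule ntESC WT #30 had 7 of the 8 genes raised, all but S100P, where 5% of the 16118 tested genes met the rule. GATA2, TFAP2A, VTCN1 and GABRP were over 4 times the highest control. ntESC WT #53 had VTCN1 and GABRP raised (4.8% of genes), and ntESC GFP #50 had the same pair raised (1.25% of genes). No member was raised in ntESC WT #61 (1.32% of genes), GFP #24 (0.608%), GFP #54 (4.01%) or GFP #55 (1.39%). TFAP2A was lowered in GFP #24 (0.658% of genes), GATA3 and TFAP2A in GFP #54 (1.73%) and GATA3 in GFP #55 (0.794%). Setting each control line against the other 3 in the same way raised CGA in #13 (0.949% of genes) and TFAP2A in #37 (1.32% of genes). These are single libraries with no error of their own.

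As groups, the ntESC WT lines did not pass the test against control ESCs for any member. With limma on log2(TPM + 0.1) and Benjamini-Hochberg adjustment over all genes, 0 of 8 were called, where 0.0186% of genes were called higher and 0.0745% lower, and 3103 genes had an unadjusted p under 0.05. All 8 differences were above 0, with a median of 1.41 against -0.01 over all genes on the log2 scale. VTCN1 had a log2 difference of 3.12 ± 1.48 (SE, adjusted p = 0.275), GABRP 2.60 ± 1.52 (adjusted p = 0.35), CGA 2.16 ± 0.75 (adjusted p = 0.188) and TFAP2A 1.55 ± 0.91 (adjusted p = 0.35). GATA2, GATA3, ISL1 and S100P lay between 0.88 and 1.27. The count of calls depended on line #61, whose levels were in or next to the control range for all members but CGA. Without #61 GATA2 rose by 1.72 (adjusted p = 0.0331), TFAP2A by 2.699 (adjusted p = 0.0338) and VTCN1 by 4.81 (adjusted p = 0.0335), in a fit that called 1274 genes higher and 1626 lower. The size of the differences depended on line #30. Without #30 they were 0.098 for GATA2, 0.52 for TFAP2A, 1.21 for VTCN1 and 0.84 for GABRP. No member was called in that fit, which called 7 genes higher and 18 lower.

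In ntESC GFP lines S100P fell, with a log2 difference of -3.48 ± 0.57 (SE, limma, adjusted p = 0.0306), lower than every control line in 4 of 4 lines. This was the 1 member called, where 0.223% of genes were called higher and 0.217% lower. With 3 of 4 libraries at 0 the size of the difference is set by the pseudocount, being -5.98 at 0.01 TPM, and the call was lost at a pseudocount of 1 TPM and when GFP #24, #54 or #55 or control #13, #17 or #37 was left out. The other 7 members had log2 differences from -1.43 (GATA3, adjusted p = 0.377) to 0.86 (CGA, adjusted p = 0.615), and the median of the 8 was -0.92. Taking both SCNT groups together, 0 members were called against control ESCs by limma (0.112% of genes higher, 0.0993% lower, and 2294 genes at an unadjusted p under 0.05). VTCN1 had a difference of 1.68 ± 1.22 (adjusted p = 0.557) and CGA 1.51 ± 0.62 (adjusted p = 0.297). Without WT #30 and #53 the differences of GATA2, TFAP2A, ISL1, VTCN1 and GABRP turned negative and 0 members were called. The difference between the WT and GFP groups was not tested.

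**Figure D2:**
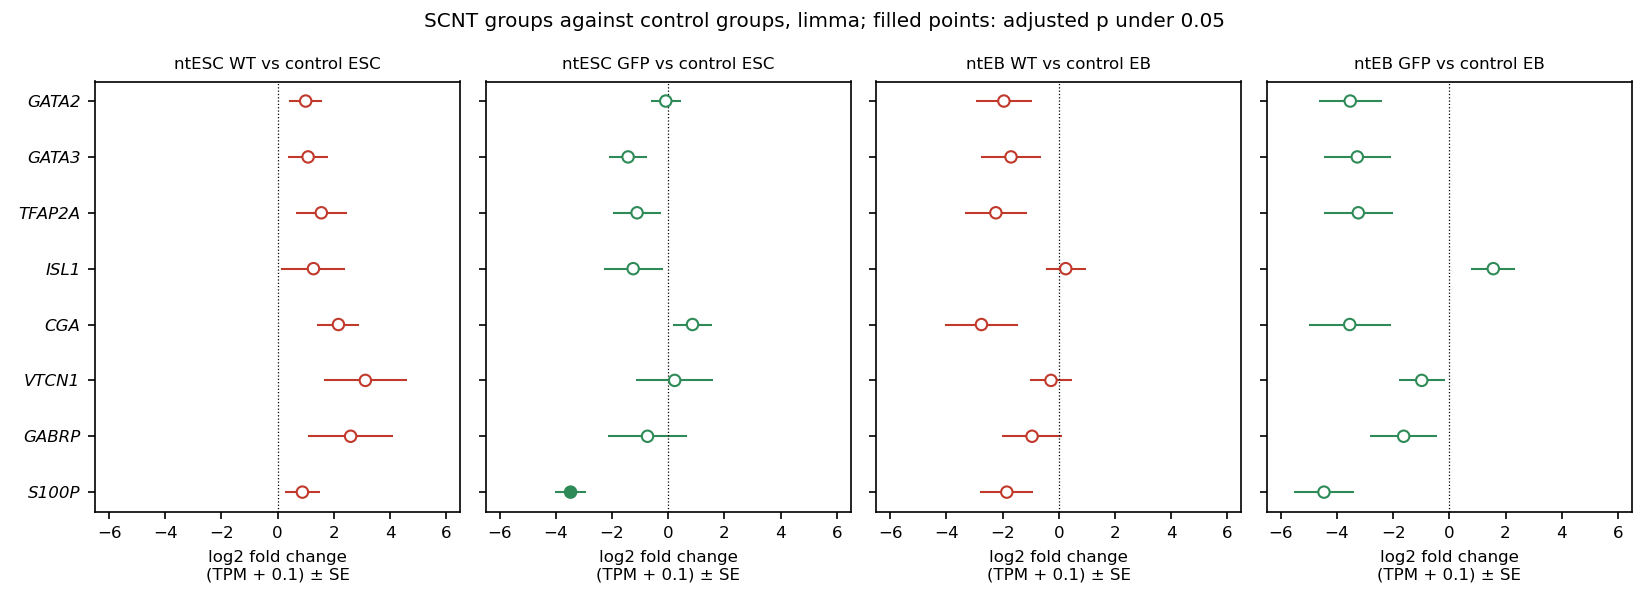
log2 differences (TPM + 0.1) with standard errors from limma for each of the 8 genes, in ntESC WT and ntESC GFP against control ESC and in ntEB WT and ntEB GFP against control EB, with a filled point where the adjusted p was under 0.05. Only S100P in ntESC GFP is filled, and the ntEB GFP points of GATA2, GATA3, TFAP2A, CGA and S100P all lie below -3.

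Markers of other states differed between the same lines. HAND1, a transcription factor of amnion and extraembryonic mesoderm, was at 715.6, 338.6 and 30.5 TPM in ntESC WT #30, #53 and #61 and at 147.9 TPM in GFP #50, against 27.7 to 142.4 TPM in control lines. The pluripotency factor NANOG was at 131.5, 328.2 and 821.9 TPM in the WT lines, against 570.7 to 791.1 TPM in control lines, and SOX2 at 41.4, 71.1 and 246.2 TPM, against 142.1 to 217.1 TPM. None of the 15 pluripotency genes was called, and all 15 differences of ntESC WT were below 0 (median -0.97). The summed level of 17 fibroblast genes was 5924, 7812 and 783.3 TPM in the WT lines, 596.4 to 2279 TPM in the GFP lines and 811.3 to 2838 TPM in the control lines, and 56572 TPM in the fibroblast culture. Of the 17 genes 14 were at 1 TPM or more in each WT line, as were 11 to 14 in the GFP lines and 13 to 14 in the control lines, and all 17 in the culture. Of the 14 fibroblast genes tested, 1 was called lower in ntESC WT and 9 differences were above 0 (median 0.94). In ntESC GFP 0 were called and 2 were above 0 (median -0.84). FAP was listed at 0 in every stem cell line and PRRX1 was at most at 0.301 TPM, against 137.5 and 464.4 TPM in the culture. This pair was picked after the values were seen and does not stand for the list. In this RNA from whole cultures, fewer cells of a type and less RNA per cell cannot be told apart, and the part of these markers in the member levels was not tested.

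Of 18 other amnion-associated genes tested, 0 were called in ntESC WT and 16 differences were above 0 (median 0.77), and of 18 other trophoblast genes 0 were called and 10 were above 0 (median 0.02), beside a median over all genes of -0.01. In ntESC GFP 1 amnion-associated gene rose, GADD45G, a growth arrest gene, with a log2 difference of 0.88 ± 0.13 (SE, limma, adjusted p = 0.0238). Only 4 of the 18 differences were above 0 there (median -0.51), and 7 of the 18 trophoblast genes (median -0.09). Among 15 readout genes of BMP signalling 0 were called in either group, and 9 were above 0 in ntESC WT (median 0.27) and 4 in ntESC GFP (median -0.41). TFAP2C, the most abundant measured relative of TFAP2A, was at 91.6 to 201.1 TPM in WT lines, 94.9 to 181.6 TPM in GFP lines and 72.6 to 134.0 TPM in control lines.

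In EBs, GATA2, GATA3, TFAP2A, CGA and S100P were lower in 4 of the 5 SCNT cultures than in every control, all but WT #61. The share of all genes with that pattern was not counted. No member lay below the controls in all 5 SCNT cultures, as 2.02% of tested genes did. VTCN1 and GABRP were below every control in WT #30, WT #53 and GFP #24, and ISL1 in no SCNT culture. GATA2 was at 27.0, 43.5 and 338.1 TPM in ntEB WT #30, #53 and #61 and at 10.1 and 59.8 TPM in ntEB GFP #24 and #50, against 183.2, 305.8 and 414.7 TPM in control EB #13, #17 and #37. GATA3 was at 30.4, 93.9 and 469.3 TPM in the WT lines and 12.0 and 113.0 TPM in the GFP lines, against 281.2, 444.3 and 369.3 TPM in the controls. For both factors 4 of 5 SCNT lines lay below every control EB, and WT #61 lay among or above the controls. TFAP2A repeated the pattern, with 3.19, 11.2 and 59.7 TPM in the WT lines and 2.53 and 16.04 TPM in the GFP lines, against 31.6, 68.5 and 107.5 TPM in the controls. ISL1 did not, at 0.977, 0.288 and 0.265 TPM in the WT lines, 0.957 and 1.58 TPM in the GFP lines and 0.141, 0.545 and 0.486 TPM in the controls.

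The hormone subunit and S100P reached the highest levels of the set in EBs. CGA was at 175.6, 43.7 and 1266 TPM in ntEB WT #30, #53 and #61 and at 58.2 and 260.6 TPM in ntEB GFP #24 and #50, against 454.1, 1435 and 4577 TPM in control EB #13, #17 and #37. The controls themselves differed, since by the single-line rule #13 was lowered for CGA and TFAP2A against the other controls (1.95% of genes) and #37 was raised for CGA (3.15% of genes). S100P was at 187.9, 297.5 and 2081 TPM in the WT lines and 36.1 and 176.0 TPM in the GFP lines, against 1135, 1861 and 2587 TPM in the controls, which all exceeded every SCNT line but WT #61. VTCN1 was at 21.7, 21.6 and 101.8 TPM in the WT lines and 10.96 and 44.9 TPM in the GFP lines, against 30.1, 63.6 and 44.4 TPM in the controls. GABRP was at 6.52, 14.8 and 36.3 TPM in the WT lines and 2.01 and 43.5 TPM in the GFP lines, against 35.5, 36.7 and 19.7 TPM in the controls. For VTCN1 and GABRP the SCNT and control EBs overlapped, and GFP #50 lay within the controls for VTCN1 and above them for GABRP.

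**Figure D3:**
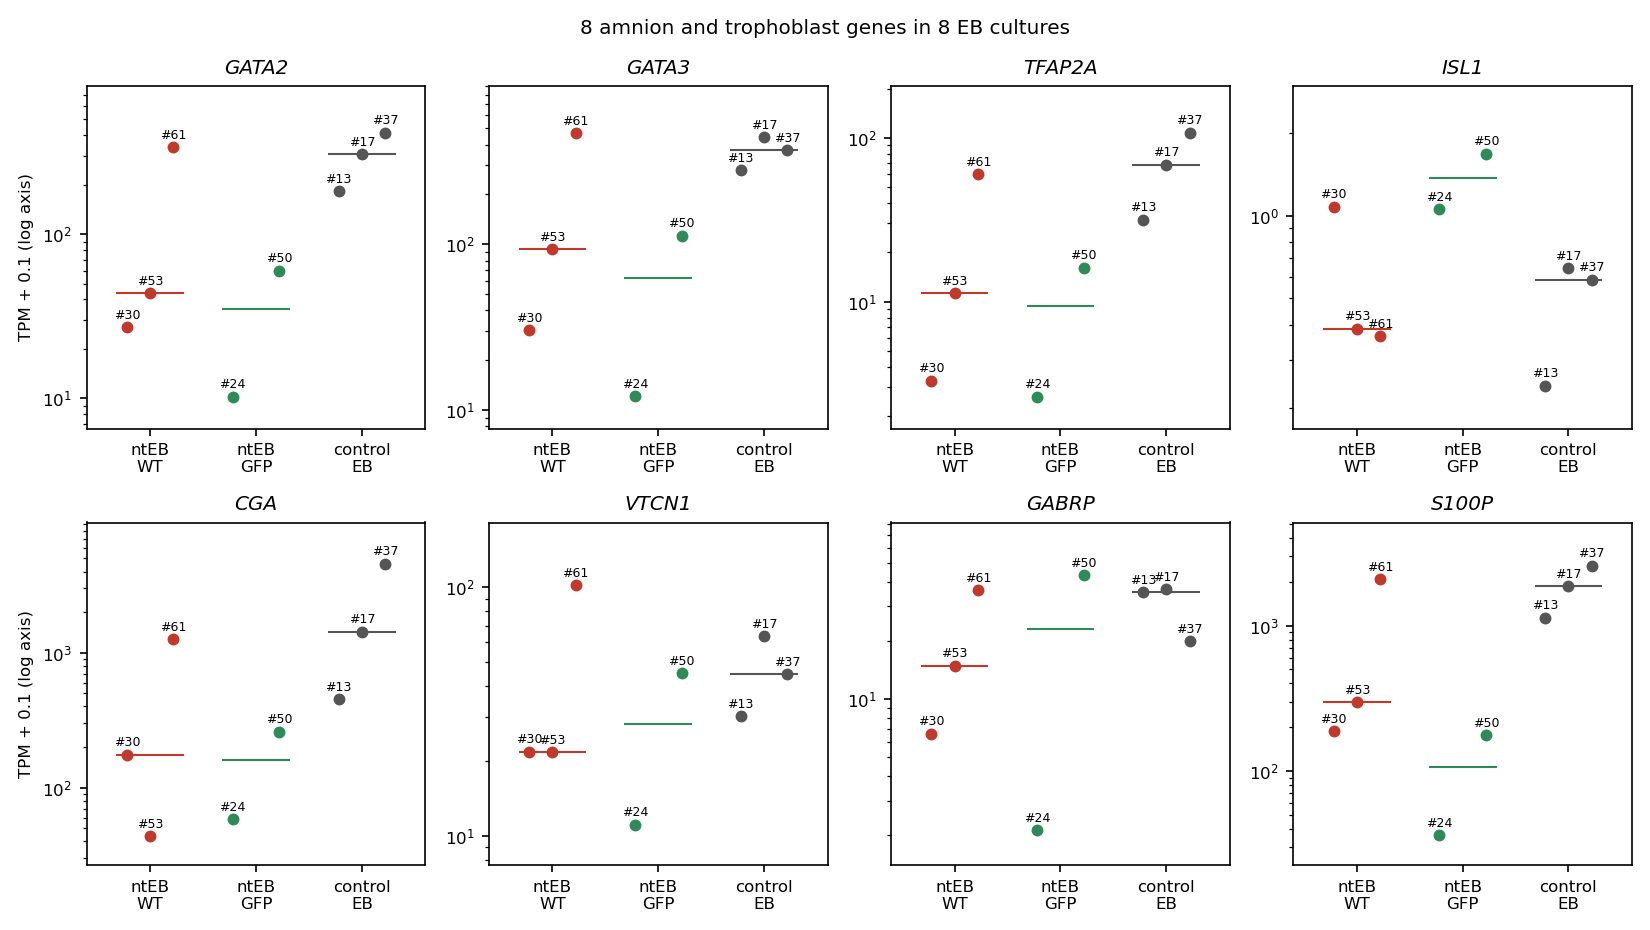
Level of each of the 8 genes (TPM + 0.1, log axis) in the 8 EB cultures, 1 point a line, with ntEB WT, ntEB GFP and control EB from left to right and a bar at the group median. ntEB WT #61 sits with the control EBs for GATA2, GATA3, TFAP2A, CGA and S100P, and the other 4 SCNT cultures lie below all control EBs for these genes. The share of all genes with this pattern was not counted.

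By the single-line rule, ntEB WT #30 had 6 of 8 members lowered against the control EBs, all but ISL1 and VTCN1, where 8.55% of the 16621 tested genes met the rule. ntEB WT #53 had 5 lowered, GATA2, GATA3, TFAP2A, CGA and S100P (4.83% of genes), and WT #61 had 0 (5.57% of genes). ntEB GFP #24, the EB culture with the highest summed pluripotency genes, had 7 lowered, all but ISL1 (6.59% of genes). ntEB GFP #50 had GATA2, GATA3 and S100P lowered (2.92% of genes) and ISL1 raised (4.63% of genes). S100P was more than 4-fold below the lowest control in 3 of the 5 SCNT cultures, WT #30 (3.61% of genes), GFP #24 (3.01%) and GFP #50 (0.644%). So was GATA2, in WT #30, WT #53 (1.17% of genes) and GFP #24. At 4-fold GATA3 and TFAP2A were lowered in WT #30 and GFP #24, CGA in WT #53 and GFP #24, and GABRP in GFP #24.

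No member passed the test between EB groups. In ntEB WT 0 of 8 were called by limma, where 0% of genes were called higher and 0.00602% lower, and 637 genes had an unadjusted p under 0.05. ISL1 was the 1 member with a difference above 0, and the 8 had a median of -1.78 against -0.03 over all genes. CGA had a log2 difference of -2.75 ± 1.31 (SE), TFAP2A -2.24 ± 1.10, GATA2 -1.95 ± 1.00, S100P -1.85 ± 0.94 and GATA3 -1.70 ± 1.08, and the adjusted p-values of the 8 ran from 0.984 to 0.992.

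The ntEB GFP group lay further from the controls but has 2 lines. GATA2, GATA3, TFAP2A, CGA and S100P lay wholly below the control EBs, as 14% of all tested genes did, and ISL1 wholly above, as 23.8% did. The log2 differences were -4.46 ± 1.05 (SE) for S100P, -3.55 ± 1.46 for CGA, -3.53 ± 1.12 for GATA2, -3.28 ± 1.202 for GATA3, -3.24 ± 1.23 for TFAP2A, -1.63 ± 1.20 for GABRP, -0.98 ± 0.82 for VTCN1 and 1.56 ± 0.79 for ISL1. None was called by limma (adjusted p = 0.528 to 0.639), where 0.00602% of genes were called in each direction and 1573 had an unadjusted p under 0.05. The median of the 8 was -3.26, beside 0.20 over all genes, which quantile normalization brought to 0.00. Without GFP #24, with 1 GFP EB library left, the median of the 8 was -1.80, beside -0.01 over all genes. The differences were then -3.32 for S100P, -2.47 for CGA, -2.25 for GATA2, -1.93 for TFAP2A, -1.67 for GATA3 and 1.896 for ISL1, while VTCN1 and GABRP turned to 0.03 and 0.56.

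For both SCNT groups together against control EBs 0 members were called by limma (0% of genes higher, 0% lower, and 1144 genes at an unadjusted p under 0.05). S100P had a log2 difference of -3.16 ± 0.85 (SE) and GATA2 -2.74 ± 0.90 (adjusted p = 0.696 for both). Each was lower than all controls in 4 of 5 lines, a pattern whose share among all genes was not counted. Without ntEB GFP #24, with 1 GFP EB library left, the differences were -2.59 for S100P and -2.10 for GATA2. Without ntEB WT #61 both were called lower, S100P at -3.68 (adjusted p = 0.0357) and GATA2 at -3.29 (adjusted p = 0.0423), in a fit that called 368 genes higher and 301 lower.

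**Figure D4:**
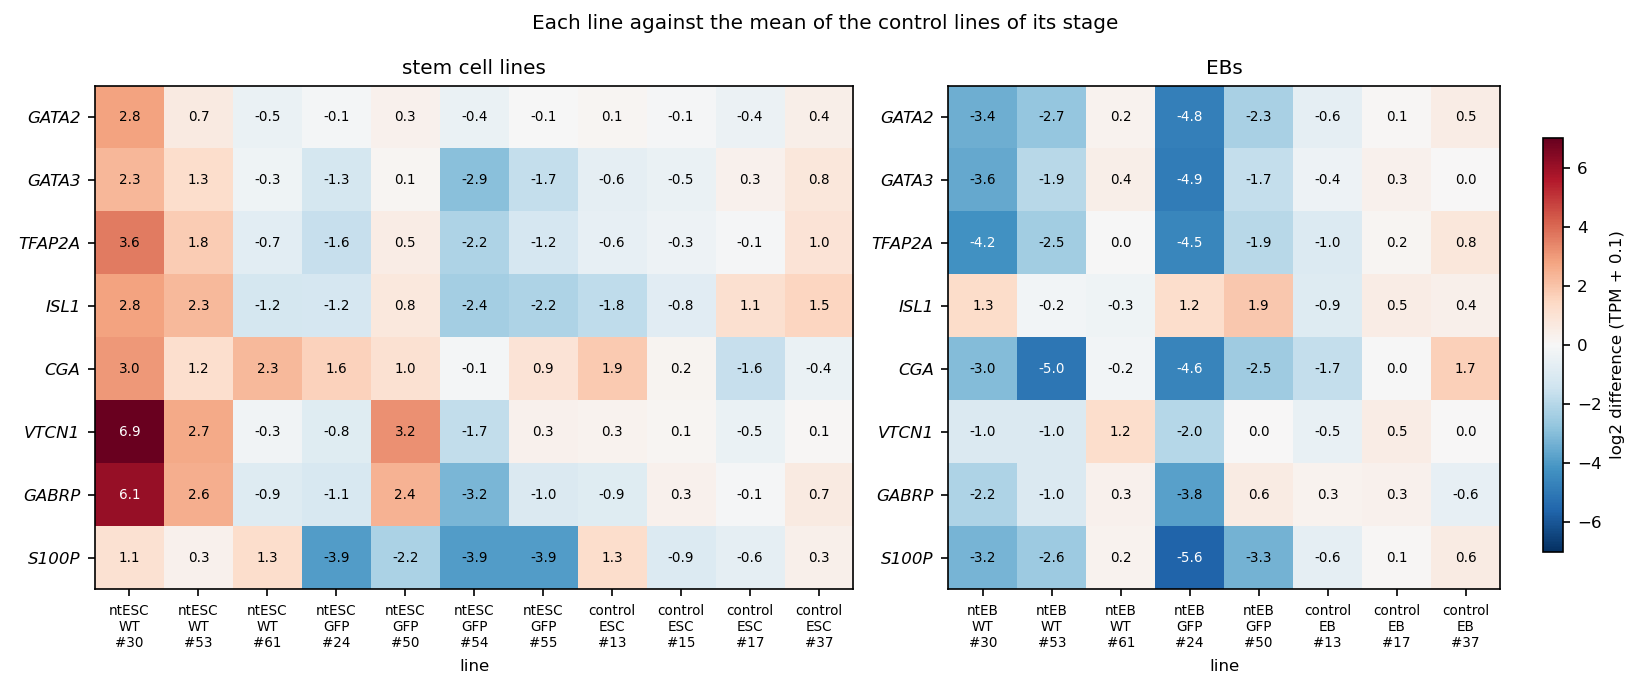
Difference of each line from the mean of the control lines of its stage, in log2 of TPM + 0.1, with stem cell lines on the left panel and EBs on the right, SCNT lines before controls. ntESC WT #30 runs from 1.09 (S100P) to 6.94 (VTCN1) in the stem cell panel, and the EBs of the same line run from -4.23 (TFAP2A) to 1.26 (ISL1).

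In each of the other lists 0 genes were called by limma between EB groups, and their values are given as counts and medians. Of 22 other trophoblast genes tested, 2 had a positive difference in ntEB WT (median -0.81) and 4 in ntEB GFP (median -1.41). Of 18 other amnion-associated genes 3 were above 0 in ntEB WT (median -0.65) and 6 in ntEB GFP (median -0.58), and of 16 surface ectoderm genes 0 and 2 were (medians -1.30 and -1.05). Of 17 fibroblast genes 16 and 15 were above 0 (medians 0.47 and 1.00), and of 10 yolk sac and visceral endoderm genes 9 and 10 (medians 1.72 and 3.62). Without GFP #24 the medians of ntEB GFP were -0.51 for the trophoblast genes, -0.15 for the amnion-associated genes, -0.19 for the surface ectoderm genes, 0.88 for the fibroblast genes and 4.14 for the 9 yolk sac and visceral endoderm genes then tested, an alternative chosen after seeing the data. SERPINA1, a plasma protease inhibitor of liver and yolk sac endoderm, was at 372.0, 430.9 and 3.96 TPM in ntEB WT #30, #53 and #61 and at 216.4 and 419.1 TPM in ntEB GFP #24 and #50, against 1.24, 36.3 and 0.117 TPM in control EB #13, #17 and #37. The summed fibroblast level was 52543, 30037 and 2630 TPM in the WT lines and 18422 and 23368 TPM in the GFP lines, against 9502 to 15914 TPM in control EBs. The 4 SCNT EBs with S100P below every control had more SERPINA1 and a higher summed fibroblast level than every control, and the part of cell makeup in the member levels was not tested.

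TFAP2C was at 22.5, 37.1 and 208.1 TPM in the WT EBs and 74.3 and 55.2 TPM in the GFP EBs, against 141.7, 196.1 and 198.2 TPM in control EBs, with WT #61 again the 1 SCNT culture at the control level. GATA6, the most abundant measured relative of GATA2 and GATA3 in the EBs apart from WT #61, was at 101.4, 68.7 and 16.7 TPM in the WT EBs and 58.5 and 85.3 TPM in the GFP EBs, against 53.2, 63.1 and 29.7 TPM in control EBs, where WT #61 was the lowest. GATA6 is a factor of primitive endoderm and mesoderm. TSHB, which encodes the thyrotropin beta subunit that pairs with CGA in the pituitary, was at most at 1.47 TPM in any library. It does not stand for its list of 20 beta subunits and pituitary regulators. The list summed to 27.1 to 367.3 TPM in ntEB WT, 148.1 to 211.6 TPM in ntEB GFP and 101.1 to 120.6 TPM in control EBs, against 8.55 to 20.6 TPM in control ESCs.

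The change that EB culture brought was measured across the stem cell and EB tables, which were scaled separately, so stage and table cannot be told apart. In control lines 7 of 8 members rose, all but ISL1, and the control EBs lay wholly above the control ESCs for the same 7, as 25.5% of all tested genes did. By limma 20.7% of genes were called higher and 35.9% lower. CGA rose by a log2 difference of 10.95 ± 1.04 (SE, adjusted p = 2.04e-06), S100P by 10.22 ± 0.76 (adjusted p = 4.6e-07), VTCN1 by 5.38 ± 1.31 (adjusted p = 0.00247) and GABRP by 4.54 ± 1.43 (adjusted p = 0.0129). The transcription factors TFAP2A, GATA3 and GATA2 rose by 4.10, 3.58 and 3.31. ISL1 had a difference of -1.46 ± 1.01 (adjusted p = 0.229). The median of the 8 was 4.32, beside -0.28 over all genes.

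Part of the other genes listed for both tissues rose in the control EBs too. The lists are not particular to these tissues. The amnion-associated genes summed to 8764 TPM in the fibroblast culture, against 6512 to 7947 TPM in control EBs and 5083 to 9029 TPM in control ESCs. The trophoblast genes summed to 1366 TPM in the culture, 2260 to 2752 TPM in control EBs and 1367 to 1430 TPM in control ESCs. Of 21 other trophoblast genes 12 were called higher and 3 lower. ERVFRD-1 (syncytin-2, a fusion protein of syncytiotrophoblast) rose by 6.65, CDX2 (a trophectoderm factor) by 5.54, KRT23 (a keratin) by 5.47 and CYP19A1 (aromatase, which makes estrogens) by 5.34 on the log2 scale. Of 18 other amnion-associated genes 9 were called higher and 3 lower, led by POSTN at 7.58, NR2F2 at 6.12, WNT6 at 5.43 and IGFBP3 at 5.05, and POSTN also stands in the fibroblast list, where 10 of 17 were called higher. Of 15 BMP readout genes 3 were called higher and 7 lower, with ID4, ID1, GREM1 and ID3 at -6.08, -4.70, -4.68 and -3.68. In the control EBs 14 of 15 pluripotency genes fell and 0 rose.

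In ntEB WT against ntESC WT 2 of 8 members were called by limma, where 14.3% of genes were called higher and 32.1% lower. CGA rose by 6.03 ± 1.11 (SE, adjusted p = 4.78e-04) and S100P by 7.48 ± 0.82 (adjusted p = 1.22e-05), and the EBs lay wholly above the stem cells for these, as 13.7% of all tested genes did. VTCN1 had a log2 difference of 1.98 ± 1.40 (adjusted p = 0.259), GABRP 0.99 ± 1.53, GATA3 0.80 ± 0.98, GATA2 0.36 ± 0.86 and TFAP2A 0.30 ± 1.11. ISL1 had a difference of -2.48 ± 1.08 (adjusted p = 0.0691). It was called in the fit with the line as a block (-2.48, adjusted p = 0.0252), at a pseudocount of 1 TPM (adjusted p = 0.0379) and without ntESC WT #61 (-3.74, adjusted p = 0.00922), and VTCN1 was called without ntESC WT #30 (3.89, adjusted p = 0.0154).

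In ntEB GFP against ntESC GFP 3 of 8 were called by limma, where 13.6% of genes were called higher and 16.2% lower. S100P rose by 9.23 ± 0.87 (SE, adjusted p = 1.68e-05), CGA by 6.54 ± 1.18 (adjusted p = 0.00141) and VTCN1 by 4.17 ± 1.48 (adjusted p = 0.0441), and for these the EBs lay wholly above the stem cells, as 23.7% of all tested genes did. The VTCN1 call was lost in the 16 libraries of lines read at both stages, without a line term (3.23, adjusted p = 0.237) and with one (adjusted p = 0.238). It was also lost at a pseudocount of 1 TPM, with no filter on low values and without ntESC GFP #24, #54 or #55. Without ntEB GFP #24 GATA3 was at 3.34 and GABRP at 5.83, and without ntEB GFP #50 CGA was at 5.46 and VTCN1 at 3.16. Each of these fits holds 1 GFP EB library, so only sizes are given. Whether the calls of CGA and VTCN1 hold without either GFP EB line cannot be told. Because S100P was at or near 0 in the GFP stem cells, the size of its difference depends on the pseudocount.

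Read line by line, the 8 lines with both libraries differed within the SCNT groups. The log2 change of GATA2 was -2.88, -0.05 and 4.01 in WT #30, #53 and #61 and -1.35 and 0.77 in GFP #24 and #50, against 2.56, 3.84 and 3.46 in control #13, #17 and #37. TFAP2A changed by -3.76, -0.12 and 4.79 in the WT lines and 1.14 and 1.65 in the GFP lines, against 3.70, 4.32 and 3.93 in the controls. WT #61 had a larger change than any control for both factors, and WT #30 a change of the opposite sign. GATA3 changed by -2.29, 0.39 and 4.29 in the WT lines and -0.06 and 1.79 in the GFP lines, against 3.86, 3.57 and 2.84 in the controls.

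VTCN1 and GABRP also went the other way in WT #30, the line with the most of both RNAs as stem cells. VTCN1 changed by -2.58, 1.68 and 6.85 in the WT lines and 4.23 and 2.22 in the GFP lines, against 4.56, 6.38 and 5.33 in the controls. GABRP changed by -3.74, 0.99 and 5.72 in the WT lines and 1.85 and 2.68 in the GFP lines, against 5.67, 4.95 and 3.30 in the controls. CGA and S100P were higher in the EBs of all 8 lines. CGA changed by 4.91, 4.72 and 8.48 in the WT lines and 4.72 and 7.44 in the GFP lines, against 7.43, 12.55 and 13.07 in the controls. S100P changed by 5.90, 7.35 and 9.21 in the WT lines and 8.50 and 9.13 in the GFP lines, against 8.33, 10.94 and 10.44 in the controls. ISL1 changed by -2.99, -3.95 and -0.52 in the WT lines and 0.98 and -0.32 in the GFP lines, against -0.56, -2.04 and -2.58 in the controls.

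**Figure D5:**
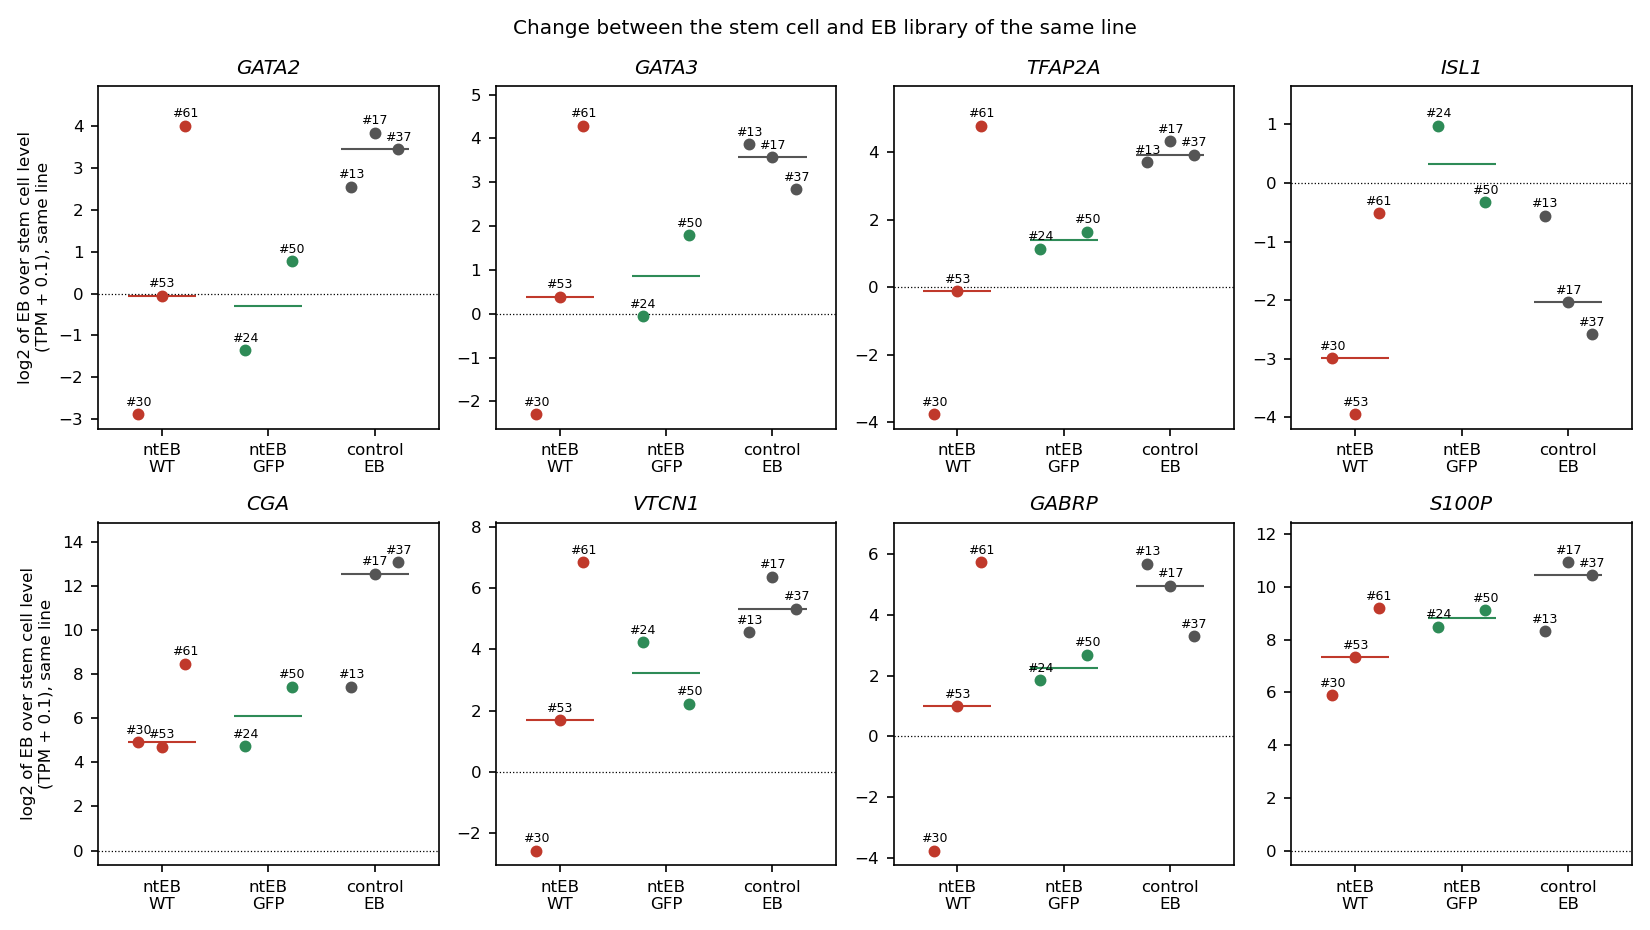
log2 of the EB level over the stem cell level (TPM + 0.1) of the same line for each of the 8 genes, 1 point a line, with ntEB WT, ntEB GFP and control EB from left to right and a bar at the group median. CGA and S100P are above 0 in all 8 lines, and GATA2, GATA3, TFAP2A, VTCN1 and GABRP are below 0 in WT #30.

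The difference in response itself did not pass the test. For ntESC WT against control 0 of 8 members were called by limma, as were 0% of genes in the higher and 0% in the lower direction, and 1123 genes had an unadjusted p under 0.05. All 8 differences of the response were below 0, with a median of -3.18 beside -0.05 over all genes. CGA had -4.92 ± 1.52 (SE), TFAP2A -3.79 ± 1.51, GABRP -3.55 ± 2.09, VTCN1 -3.40 ± 1.91 and GATA2 -2.95 ± 1.18, with adjusted p-values of the 8 from 0.732 to 0.897. Without ntEB WT #61 the responses of CGA (-6.20, adjusted p = 0.0219), GATA2 (-4.05, adjusted p = 0.0324) and S100P (-3.78, adjusted p = 0.0349) were called lower. That fit called 414 genes higher and 433 lower. For ntESC GFP against control 0 of 8 were called, beside 0.0181% of genes higher and 0% lower and 2403 genes at an unadjusted p under 0.05. CGA had -4.41 ± 1.57 (adjusted p = 0.252) and GATA2 -3.44 ± 1.22 (adjusted p = 0.25), and the median of the 8 was -1.53, beside 0.23 over all genes. Without ntEB GFP #24, with 1 GFP EB library left, the median was -0.22, beside 0.00 over all genes. GATA2 was then at -2.16 and CGA at -3.33, and GABRP and S100P turned to 1.29 and 0.15. Without ntEB GFP #50 GATA2 was at -4.72, in a fit in which #24, with its high summed pluripotency genes, was the only GFP EB library. These comparisons share their control libraries with the ones above.

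The members' patterns over libraries were alike in part. Over the 28 pairs of members Pearson's r of log2(TPM + 0.1) ran from 0.022 to 0.960 (median 0.725) in the 11 stem cell lines and from -0.618 to 0.982 (median 0.821) in the 8 EBs. Among EBs the closest pairs were GATA2 with S100P (r = 0.982), with TFAP2A (r = 0.979) and with GATA3 (r = 0.978). Over all 20 libraries and 16616 genes, the 3 genes most like each member were named. They were FAM76A, BZW2 and TFAP2A for GATA2 (r = 0.933 to 0.941), MAB21L3, CA12 and FGD4 for GATA3 (r = 0.964 to 0.973), and CA12, LOC103794832 and GATA3 for TFAP2A (r = 0.958 to 0.962). VTCN1 and GABRP were each other's nearest gene (r = 0.963), followed by GREB1L and PLEKHA6 for VTCN1 and ABTB2 and LRRC1 for GABRP. CGA was nearest to LOC100390237, ERVV-2 and GAST (r = 0.966 to 0.970), S100P to PLB1, ENTPD1 and LOC100396938 (r = 0.959 to 0.976), and ISL1 to PLD5, NAV2 and LYPD6B (r = 0.869 to 0.882). These libraries span stem cells, EBs and fibroblasts, so that r takes in the difference between stages, and it is given as a description.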

How the data were processed

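The 20 libraries were grouped by their labels into ntESC WT, ntESC GFP, control ESC, ntEB WT, ntEB GFP and control EB, and the fibroblast culture entered no test. The authors trimmed reads with fastp 0.20.1, mapped them with STAR 2.7.8a to calJac4, keeping reads with a single location and at most 1 mismatch, counted them with featureCounts of subread 2.0.6 and left out the sex chromosomes. They deposited TPM in 2 tables, one of stem cells and fibroblasts and one of EBs, of 22330 and 22803 genes, of which 3 in each that the calJac240_pri annotation places on a sex chromosome were dropped here. The libraries were read on 2 models of sequencer, and which read which library is not given in the sources used here.

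From the deposited TPM, log2(TPM + 0.1) was modelled by limma (version 3.58.1, R 4.3.3, moderated variances with a trend on the mean level). Genes averaging under 0.5 TPM were dropped, and Benjamini-Hochberg adjustment ran across every gene of a fit, with calls at an adjusted p below 0.05. The 11 stem cell libraries formed 1 fit (16118 genes), the 8 EB libraries another (16621 genes), and the 19 together a joint fit (16545 of 21181 shared genes). Each fit estimated 1 spread per gene over all of its groups. The tests were first run on simulated data. Values were tabulated with Python 3.11.15, pandas 2.3.3 and numpy 2.4.6 and drawn with matplotlib 3.10.9.

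The same line at both stages pairs libraries by its label. Deviations from the group means of the same line at both stages correlated at 0.116, 0.258 and 0.212 in WT #30, #53 and #61, 0.170 and 0.170 in GFP #24 and #50, and 0.035, 0.262 and 0.149 in control #13, #17 and #37. All 8 members are named in each comparison. In other lists, written from general knowledge, at most 4 called genes with the largest change were named, or the most abundant of a family, and FAP, PRRX1, HAND1, NANOG, SOX2, SERPINA1 and TSHB were chosen after their values were seen. The members and lists were chosen with earlier results of these data known. Alternatives were other pseudocounts, no filter, quantile normalization, leaving out single libraries, and the line as a block. Promoter motifs and sequences were not analysed here.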

Additional observations from a re-analysis of the deposited data

Results flagged for a closer look

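In groups of 4 lines, the highest or lowest value was compared with the range of its group by Dixon's ratio. Of the 16 groups tested, 8 genes in the ntESC GFP and control ESC lines, 4 held a value past it. Chance alone puts about 1 in 20 independent groups of normally distributed values past it. These 4 were not independent and TPM need not be normally distributed, so that their number is not read against that share. All 4 were in ntESC GFP #50, the highest line of its group for each of these genes. ISL1 was at 1.99 TPM there, VTCN1 at 9.55 TPM, GABRP at 6.70 TPM and S100P at 0.214 TPM, the last beside 3 lines listed at 0, where any value above 0 passes. VTCN1 and GABRP also went together over the 11 stem cell lines (r = 0.960). No difference of the EB response between SCNT and control lines passed its test.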

How the results depend on the processing

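Of 49 counts of members called under another pseudocount, filter, normalization or with the line as a block, 48 stayed within 1.5 times the reported count, and of 90 with a library left out 78 did. Where the reported count was 0 another 0 counted as within, and so did a fall from 3 to 2. These shares therefore do not measure how firm the calls are. At a pseudocount of 1 TPM 0 members were called in ntESC GFP. A 4-fold rule for single lines gave 6 raised values in stem cell lines (11 at 2-fold) and 13 values outside the control range in EBs (22 at 2-fold). With 1 library left out, the count of members called ran from 0 to 3 in ntESC WT (3 without WT #61), 0 to 1 in ntESC GFP, 0 to 2 in all ntEB (2 without ntEB WT #61), 2 to 3 in ntEB WT against ntESC WT, 1 to 5 in ntEB GFP against ntESC GFP, 0 to 3 in the response of ntESC WT (3 without ntEB WT #61) and 0 to 1 in that of ntESC GFP. It was 7 in each such fit of control EBs against control ESCs and 0 in each of all ntESC and ntEB WT. Fits that leave out an ntEB GFP library hold 1 GFP EB library, so their calls are not read.

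With the line as a replicate block in the 16 paired libraries, 7 members were called in control EBs against control ESCs, 3 in ntEB WT against ntESC WT (ISL1 added), 2 in ntEB GFP against ntESC GFP, and 0 in either response. Without the line term these libraries gave 7, 2, 2, 0 and 0, an alternative chosen after seeing the data, so that the VTCN1 call in ntEB GFP was lost with the smaller set of libraries alone, and the line term itself added ISL1 in ntEB WT and changed no other call.

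Among 1160 single values under alternatives, 38 changed sign, in 20 of 88 pairs of a member and a comparison, and 0 of these involved a called value. The cause was not tested. For all ntESC against control ESC, ISL1 was -0.060 at a pseudocount of 0.01 TPM and -0.073 after quantile normalization. Without WT #30 and #53 together, chosen after seeing the data, GATA2 was -0.27, TFAP2A -0.92, ISL1 -1.24, VTCN1 -0.014 and GABRP -0.81. The S100P response of ntESC GFP was 1.52 at a pseudocount of 0.01 TPM.

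With 1 library left out, log2 differences in ntESC GFP ran from -0.23 to 0.043 for GATA2, -0.76 to 0.88 for VTCN1 and -1.79 to 0.092 for GABRP. In all ntESC they ran from -0.48 to 0.18 for GATA3, -0.30 to 0.80 for TFAP2A and -0.59 to 0.64 for ISL1. In ntEB WT they ran from -0.26 to 0.52 for ISL1 and -1.02 to 0.10 for VTCN1, and in ntEB GFP from -1.995 to 0.029 for VTCN1 and -3.81 to 0.56 for GABRP. In ntEB WT against ntESC WT they ran from -0.74 to 1.26 for GATA2, -0.25 to 1.73 for GATA3, -0.84 to 1.34 for TFAP2A and -0.75 to 2.75 for GABRP. In ntEB GFP against ntESC GFP GATA2 ran from -1.40 to 1.15, and in the response of ntESC GFP GABRP ran from -3.07 to 1.29 and S100P from -2.13 to 0.15.

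Quantile normalization moved the median of all genes in control EBs against control ESCs to -0.08, against -0.28 as deposited, and the 7 calls were kept. The EB groups hold 2 or 3 lines, and the number of reads behind low values such as ISL1 and stem cell S100P is unknown.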
